A study of Mus musculus with 9 samples.

Results

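Fatty acids are the main fuel of the adult heart, and the genes that handle them were followed here in heart RNA of 9 mice. The members are 41 genes of fatty acid uptake, mitochondrial beta-oxidation and ketone body use, together with the PPAR nuclear receptors and their coactivators, chosen by name from a list. All 41 were among the 13890 genes of the deposited count table, and all 41 passed the filter on low counts that kept 13364 genes. The mice were NSG males, an immunodeficient strain (NOD-scid, IL2Rg null) that accepts human cells and lacks T, B and NK cells, and they were 8 weeks old at surgery. The sham group (S, animals 2, 3 and 5) received saline, the group labelled T (animals 11, 12 and 15) carries the label of an intrasplenic injection of HCT116, a human colorectal cancer line, and A + T (animals 20, 21 and 22) the label of the same injection with weekly ACVR2B/Fc. ACVR2B/Fc is the ligand-binding part of the type IIB activin receptor joined to an immunoglobulin Fc domain, and it captures activins, myostatin and related ligands. Hearts were taken about 3 weeks after surgery, and no library labelled as a sham mouse treated with ACVR2B/Fc was analysed here.

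The label of the T group could not be relied on. When the fold changes of the 429 genes in a list of the study were set beside that list, S and A + T matched their labels, whereas the libraries labelled T matched the entries for ACVR2B/Fc without a tumour rather than those for tumour hosts. They are called "the libraries labelled T" throughout, and every direction given for T is that of these libraries. The count on genes was 12392222 to 19732471 per library, of which the 41 members took 1.77% to 2.32%. Heart muscle was the labelled tissue, and all 10 cardiomyocyte markers examined were detected in every library. The summed level of these markers was 90400 to 93300 CPM in S, 75000 to 88700 in T and 64600 to 93900 in A + T. CPM is the count on a per-library scale set by sequencing depth. The markers did not move together. At an adjusted P under 0.05, 2 of the 10 (Tnnt2 and Pln) were higher in T vs. S and 1 (Actc1) was lower. Of all genes, 10.3% were higher and 11% lower. The median log2 fold change of the 10 was −0.03. Transcripts of airway epithelium summed to 113 CPM in animal 12 of T and to 1270 CPM in animal 22 of A + T, against at most 2.55 CPM in any other library. In bulk tissue, fewer cells of a type and less RNA per cell cannot be told apart.

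As background, a long-chain fatty acid enters the cardiomyocyte through carriers such as CD36, is bound by FABP3 and is activated to its CoA ester by ACSL1. CPT1 on the outer mitochondrial membrane then makes the carnitine ester, the step that malonyl-CoA inhibits, the carrier encoded by Slc25a20 moves it inward and CPT2 restores the CoA ester. The beta-oxidation spiral shortens the chain by repeated rounds of dehydrogenation, hydration, dehydrogenation and thiolysis, and passes electrons to the electron transfer flavoprotein. PPARα and PPARδ are ligand-activated nuclear receptors that bind fatty acids and drive many of these genes as partners of the retinoid X receptor, and PGC-1α, the product of Ppargc1a, is their coactivator and that of the oestrogen-related receptors.

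PPAR and the retinoid X receptor bind direct repeats of AGGTCA spaced by any 1 base (AGGTCANAGGTCA). This motif was searched on both strands in the 250 bases before each RefSeq gene start on GRCm38.p6, the patch release of the build to which the authors aligned. RefSeq windows were found for 35 of the 41 members. With up to 2 mismatches, the repeat was found in 4 of the 44 windows of these members (9.09%) and in 1063 of all 32851 windows (3.24%). The matches lay before Ucp3, Cd36, Echs1 and Etfa. Without mismatches it was found in 0 of 44 and in 11 of 32851 windows (0.0335%). The element bound by oestrogen-related receptors (TCAAGGTCA), which shares its last 6 bases with a repeat unit, was found in 0 of 44 and in 127 of 32851 windows (0.387%). A match describes letters only and is not a binding site. The windows of Ucp3 and Cd36, genes whose levels are described further on, are printed 5′ to 3′ on the strand of the gene, with the match in capitals. The window of Ucp3 is chr7:100472741-100472990 on the plus strand, and that of Cd36 is chr5:17835897-17836146 on the minus strand.

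Ucp3: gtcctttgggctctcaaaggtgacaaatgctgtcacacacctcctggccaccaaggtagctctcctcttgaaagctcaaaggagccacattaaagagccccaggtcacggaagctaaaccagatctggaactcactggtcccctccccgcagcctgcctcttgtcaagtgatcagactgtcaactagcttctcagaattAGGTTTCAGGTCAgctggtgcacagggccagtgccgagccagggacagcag

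Cd36: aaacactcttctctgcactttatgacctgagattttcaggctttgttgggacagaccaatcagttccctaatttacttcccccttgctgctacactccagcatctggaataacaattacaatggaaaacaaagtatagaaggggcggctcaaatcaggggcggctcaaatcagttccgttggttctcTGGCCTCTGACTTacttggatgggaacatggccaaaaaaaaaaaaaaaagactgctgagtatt

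In Ucp3 the match reads AGGTttcAGGTCA and lies 51 to 39 bases before the start, with lower case marking mismatched bases and the spacer. The match of Cd36, read on the opposite strand, is AaGTCAgAGGcCA and lies 63 to 51 bases before the RefSeq start used. That start lies inside the gene as annotated in GENCODE M21 (chr5, 17781690 to 17888801, minus strand), whose 5′ end is further upstream.

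In S hearts, the levels of the members spanned a wide range. On the deposited log2 scale, which divides by gene length, Fabp3 stood highest at 11.64 ± 0.12 (SD, n = 3), above 99.9% of all genes. Acadm (9.55 ± 0.08) and Acadl (9.51 ± 0.04), the medium- and long-chain acyl-CoA dehydrogenases, came next, and their levels did not differ beyond their spread. The 9 spiral genes lay between 6.83 (Acads, above 96.7% of all genes) and 9.55. The regulators were lower, from 2.10 ± 0.28 for Pparg to 5.67 ± 0.03 for Esrra. The lowest levels of all members were those of Ucp3 (2.50 ± 0.81), Pparg, Acot1 (2.04 ± 0.33) and Ehhadh (1.75 ± 0.27), and the spreads of these neighbours overlapped. Ucp3 varied most among the S hearts.

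In the libraries labelled T, 7 of the 41 members were higher than in S and 1 was lower at an adjusted P under 0.05, against 10.3% of all genes tested that were higher and 11% that were lower. Ucp3, Ehhadh, Cpt1a, Ppargc1a, Slc27a1, Bdh1 and Cd36 were higher, by 1.24-fold to 5.27-fold, and Ppard was lower. The median log2 fold change over the members was −0.03, and over all genes −0.0038. Between A + T and T, 0 members were higher and 1, Ppargc1a, was lower, against 3.09% of all genes higher and 2.79% lower. Relative to S, 5 members were higher in A + T (Ucp3, Acot1, Ehhadh, Cpt1a and Slc27a1) and 2 were lower (Ppara and Ppard), against 4.67% and 3.64% of all genes. The count in T vs. S fell to 4 without animal 2 or 15 and to 5 without animal 3 or 5, and that in A + T vs. S to 4 without animal 2 or 3. It was 13 in T vs. S without animals 12 and 22, which are described further on. The comparisons share libraries and are not independent of each other. As the members were chosen with earlier results of these data known, these counts are not a test of the list.

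**Figure D1:**
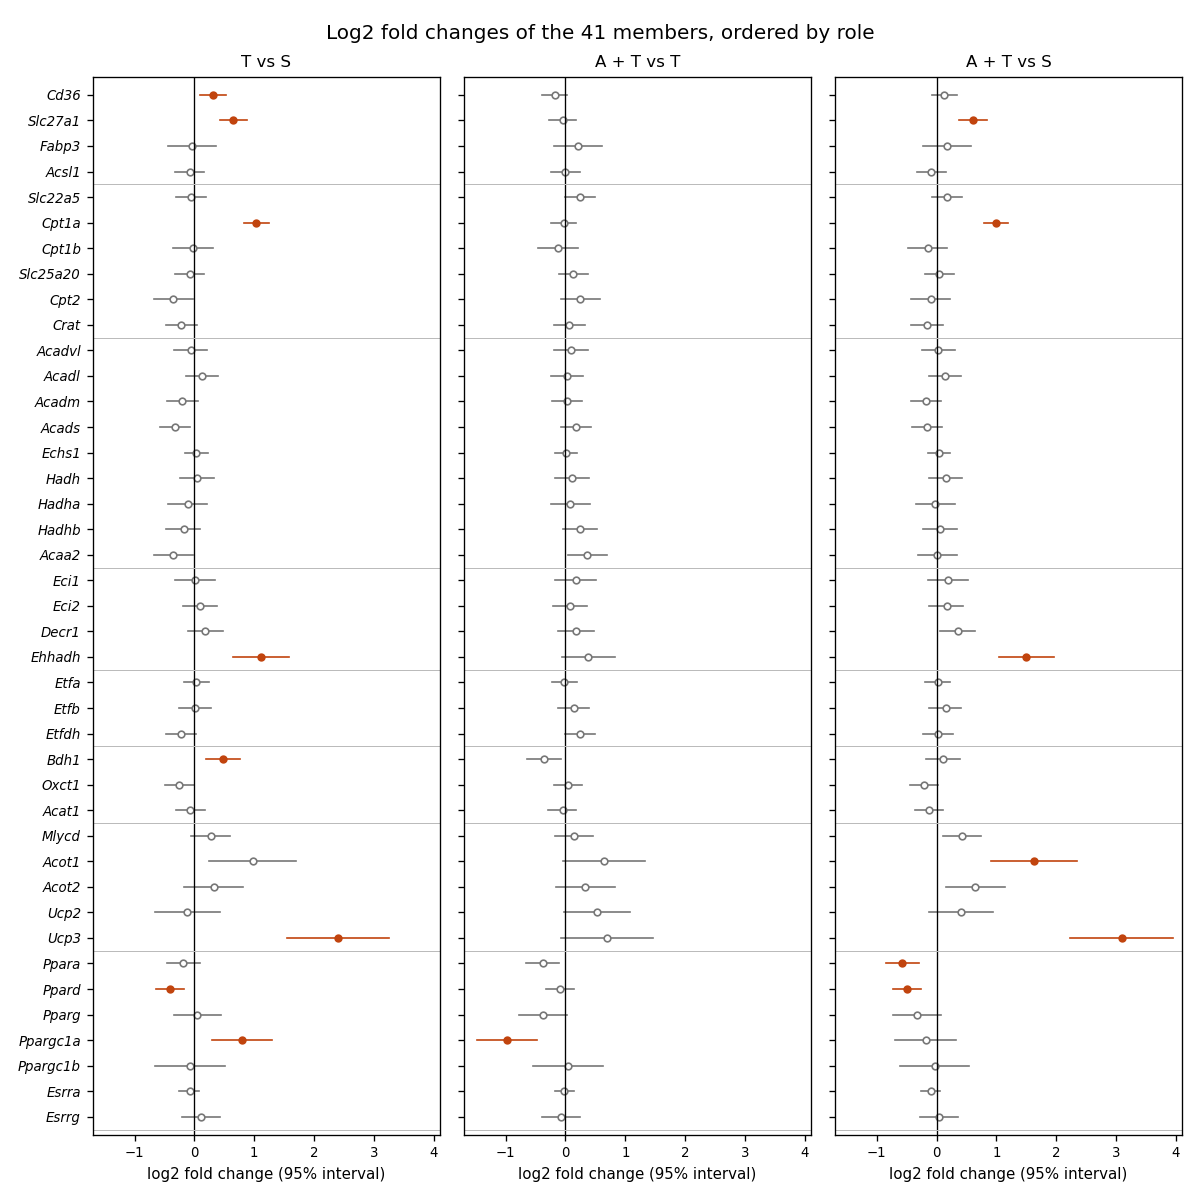
Log2 fold changes (x axis) of the 41 members (rows, grouped by role from uptake to regulators) in the 3 comparisons, a panel each. Points are edgeR estimates, lines are 95% intervals, and filled red points passed an adjusted P of 0.05. The spiral genes lie near 0 in all 3 panels, between −0.35 and 0.36, whereas Ucp3 reaches 2.40 in T and 3.09 in A + T, both against S.

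Among the genes of uptake and activation, Slc27a1 and Cd36 were higher in the libraries labelled T than in S, and Fabp3 and Acsl1 did not pass the test. Slc27a1 encodes the fatty acid transport protein FATP1. Its TMM-scaled CPM, a count corrected for library size and composition, was 124, 123 and 140 in S, 220, 174 and 215 in T and 201, 202 and 187 in A + T. Every T and A + T library was above every S library, while T and A + T overlapped. The log2 fold change was 0.65 in T vs. S (SE 0.10, adjusted P = 0.00201) and 0.61 in A + T vs. S (SE 0.10, adjusted P = 0.00881). Cd36, the fatty acid translocase, stood at 1535, 1908 and 1740 CPM in S, 2192, 2105 and 2128 in T and 1861, 1932 and 1892 in A + T. The T libraries lay above all others, and the A + T libraries fell within the upper range of S and slightly beyond it. Its rise of 0.31 on the log2 scale in T vs. S (SE 0.09, adjusted P = 0.041) kept an adjusted P under 0.05 in 2 of the 9 fits that each left out 1 animal, in which it ranged from 0.24 to 0.39. The call was lost without animals 2, 5, 11, 12, 15, 20 or 21 (highest adjusted P = 0.144), and also with upper-quartile factors or library totals. Cd36 differed between A + T and S by 0.13 (95% interval −0.08 to 0.34, adjusted P = 0.403). Fabp3 and Acsl1 lay between −0.09 and 0.21 in the 3 comparisons.

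Of the 6 genes of carnitine uptake and shuttle, 1 passed the test in T vs. S and in A + T vs. S, against 10.3% and 4.67% of all genes that were higher, so that 1 of 6 is not a result about the shuttle. Cpt1a, the isoform of carnitine palmitoyltransferase 1 that predominates in liver and in the fetal heart, doubled. It measured 48.6, 49.0 and 56.8 CPM in S, 110, 94.1 and 111 in T and 96.6, 105 and 105 in A + T. Both groups lay above S with no overlap and overlapped each other. The log2 fold change was 1.03 in T vs. S (SE 0.09, 2.04-fold, adjusted P = 0.000149) and 0.99 in A + T vs. S (SE 0.09, 1.99-fold, adjusted P = 0.00103). Between A + T and T it differed by −0.03 (95% interval −0.24 to 0.17, adjusted P = 0.863).

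Cpt1b is the muscle isoform of the same enzyme. Its CPM was 18.4, 18.7 and 23.0 in S, 21, 15.6 and 22.6 in T and 20, 17.8 and 16.2 in A + T. All groups overlapped. The log2 fold change in T vs. S was −0.03 (95% interval −0.36 to 0.31, adjusted P = 0.921). Cpt1b lies at chr15, 89416405 to 89425863, on the minus strand. In GENCODE M21, 81.4% of its exon bases are shared with the read-through transcript Gm44502 on the same strand. Reads that fall on 2 genes may go uncounted, although the counts were made on refGene, where this overlap was not checked. The level of Cpt1b, with 241 to 369 counts per library, may therefore be understated, and the absolute ratio of the isoforms cannot be read from it. The log2 ratio of Cpt1a to Cpt1b on the per-length scale was 0.73 to 0.83 in S, 1.72 to 2.01 in T and 1.69 to 2.12 in A + T. It differed by 1.06 in T vs. S and by 1.14 in A + T vs. S, without overlap (two-sided exact permutation test, P = 0.1 each, the smallest that 3 animals against 3 allow, adjusted over 3 comparisons P = 0.15). Between A + T and T the ratio differed by 0.08 (exact permutation P = 0.8). The remaining shuttle genes are Slc22a5, the plasma membrane carnitine transporter, Slc25a20, Cpt2 and Crat, which transfers acetyl groups to carnitine. None of these 4 passed the test in any comparison.

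The 9 genes of the beta-oxidation spiral did not pass the test in any of the 3 comparisons. Of all genes, 10.3% were higher and 11% lower in T vs. S. The shares were 3.09% and 2.79% in A + T vs. T, and 4.67% and 3.64% in A + T vs. S. At these shares few calls would be expected among 9 genes, so the absence of calls is not a result about the spiral. Acads in T vs. S came nearest (−0.33, adjusted P = 0.0623), and it was called lower with DESeq2, with upper-quartile factors and in 2 of the 9 fits without 1 animal. The spiral genes encode the acyl-CoA dehydrogenases (Acadvl, Acadl, Acadm, Acads), the short-chain hydratase and hydroxyacyl dehydrogenase (Echs1, Hadh), the trifunctional protein (Hadha, Hadhb) and the mitochondrial thiolase (Acaa2). In T vs. S their log2 fold changes lay between −0.35 (Acaa2) and 0.13 (Acadl), and their 95% intervals between −0.68 and 0.40. For A + T vs. T all 9 estimates were positive, from 0.01 to 0.36, with intervals between −0.25 and 0.69. For A + T vs. S they lay between −0.17 and 0.15, with intervals between −0.42 and 0.43. These intervals do not show that the levels were equal, but changes of the size of that in Cpt1a were outside them.

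Animal 12 of T stood apart in these genes. It was the lowest of all 9 libraries for 9 of the 9 spiral genes and for 22 of the 41 members, and for Hadha it measured 1327 CPM, against 2109 and 1852 in the other T libraries and 1813 to 1954 in S. It is 1 of the libraries with airway transcripts, and its summed atrial markers (4930 CPM) were above those of any other library. The part of these transcripts in its levels was not tested. Without animals 12 and 22, an alternative chosen after seeing the data, 12 members were higher and 1 was lower in T vs. S, against 13.4% and 13.1% of all genes in that fit. Relative to S, 8 were higher and 2 lower in A + T, against 5.08% and 4.34% of all genes. The additional calls in T vs. S were Acadl (0.27), Decr1 (0.34), Mlycd (0.40), Acot1 (1.25) and Acot2 (0.58), all as log2 fold changes, and those in A + T vs. S were Decr1 (0.32), Bdh1 (0.27) and Acot2 (0.60). The spiral genes then lay between −0.22 and 0.27 in T vs. S and between −0.06 and 0.16 in A + T vs. T. Without animal 12 alone, 3 of the 9 estimates in A + T vs. T were positive (−0.12 to 0.21), and without animal 22 alone, 9 of 9 were (0.02 to 0.32).

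Among the auxiliary enzymes, Ehhadh rose in both groups, and Eci1, Eci2 and Decr1, which handle unsaturated chains, did not pass the test. Ehhadh is the bifunctional enzyme of peroxisomal beta-oxidation. It was 8.18, 10.5 and 11.8 CPM in S, 29.9, 18.1 and 17.6 in T and 26.9, 31.9 and 27.2 in A + T. Every T and A + T library exceeded every S library. The log2 fold change was 1.12 in T vs. S (SE 0.21, adjusted P = 0.00448) and 1.5 in A + T vs. S (SE 0.21, adjusted P = 0.00401), with 0.38 in A + T vs. T (95% interval −0.06 to 0.82, adjusted P = 0.281). The electron transfer flavoprotein subunits Etfa and Etfb and the dehydrogenase Etfdh had 0 of 3 genes past the test in each comparison, with log2 fold changes from −0.22 to 0.24. With 3 genes, the absence of calls is not a result about this step. Of the exon bases of Etfb, 58.2% are shared with Gm45233 in GENCODE. The counts were made on another annotation, refGene, where this overlap was not checked. A loss of Etfb reads is therefore possible but not shown.

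Of the 3 ketone body genes, Bdh1, which encodes the mitochondrial 3-hydroxybutyrate dehydrogenase, was higher in T. It measured 194, 196 and 195 CPM in S, 278, 260 and 276 in T and 248, 222 and 163 in A + T. T lay above both other groups, while A + T spread across S, with animal 22 lowest. Bdh1 differed by 0.47 on the log2 scale in T vs. S (SE 0.13, adjusted P = 0.0254) and −0.36 in A + T vs. T (95% interval −0.65 to −0.08, adjusted P = 0.125). The call in T vs. S was lost without animals 2, 3, 5, 11 or 15 (range 0.46 to 0.50, highest adjusted P = 0.0766) and with library totals alone. Oxct1, the succinyl-CoA transferase that commits ketone bodies to oxidation, and Acat1, the acetoacetyl-CoA thiolase, lay between −0.25 and 0.04 and did not pass the test.

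Ucp3, the mitochondrial uncoupling protein of muscle, showed the largest rise of the 41 members against S, in T as in A + T. It measured 8.35, 12.4 and 25.5 CPM in S, 115, 48.5 and 76.8 in T and 133, 136 and 120 in A + T. The 3 groups did not overlap in any pair, with A + T highest. The S mean was 15.4 ± 8.99 CPM (SD, n = 3), that of T 80.1 ± 33.4 and that of A + T 129 ± 8.66. On the log2 scale Ucp3 rose by 2.40 in T vs. S (SE 0.38, 5.27-fold, adjusted P = 0.00211) and by 3.09 in A + T vs. S (SE 0.39, 8.52-fold, adjusted P = 0.00286). Against T, A + T was higher by 0.69 (95% interval −0.08 to 1.47, adjusted P = 0.271), which did not pass the test. Ucp3 (chr7, 100472990 to 100486432) and Ucp2 (chr7, 100493337 to 100502020) are neighbours on the plus strand and share 0% of their 75-base words, so reads could be told apart. Ucp2, which is expressed in many cell types, did not pass the test, and its log2 fold change was −0.12 in T vs. S (adjusted P = 0.774).

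Acot1 and Acot2 encode the cytosolic and mitochondrial acyl-CoA thioesterases. Acot1 passed the test in A + T vs. S alone and is named for that reason, after its values were seen. It measured 5.09, 6.14 and 8.10 CPM in S, 17.4, 7.91 and 12.5 in T and 13.2, 18.5 and 27.4 in A + T. Animal 12 of T fell within the range of S, and A + T lay above S. Acot1 differed by 1.62 on the log2 scale in A + T vs. S (SE 0.32, adjusted P = 0.0153), a call lost without animal 2 or 3 of S (range 1.31 to 1.84, highest adjusted P = 0.0777), and 0.98 in T vs. S (SE 0.33, adjusted P = 0.0569). Of the 75-base words of the Acot1 transcript, 19.7% also occur in Acot2. Only uniquely mapped pairs were counted, so pairs that fit both paralogs may be missing and both levels understated. Acot2 had log2 fold changes of 0.32 in T and 0.64 in A + T, both against S (adjusted P = 0.344 and 0.10). Mlycd, malonyl-CoA decarboxylase, which removes the inhibitor of CPT1, had 0.27 and 0.42 (adjusted P = 0.204 and 0.0993).

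**Figure D2:**
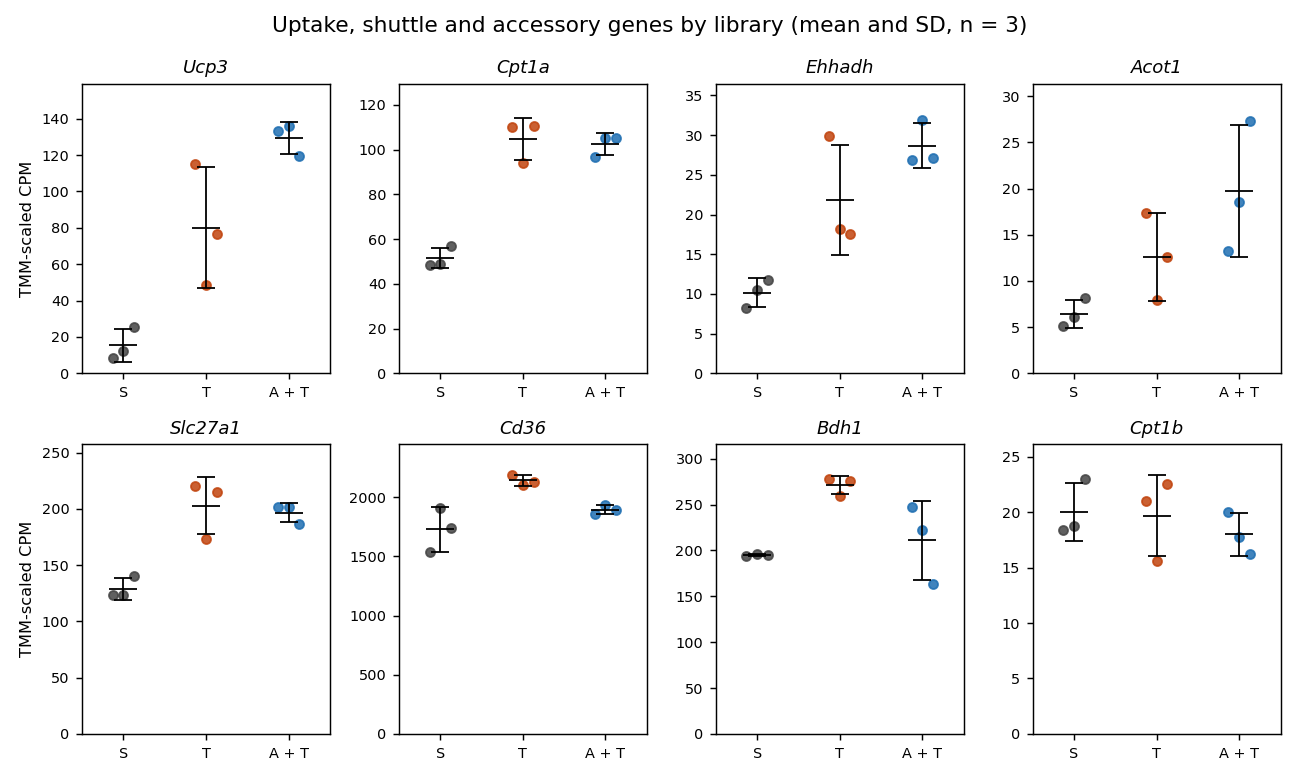
TMM-scaled CPM (y axis, from 0) of 8 members in the 9 libraries, by group on the x axis. Points are animals, and bars are the mean and SD (n = 3). For Ucp3, Cpt1a, Ehhadh and Slc27a1 every library labelled T or A + T lies above the S libraries, whereas the groups of Cpt1b overlap.

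Of the 7 nuclear receptors and coactivators, Ppard and Ppargc1a differed in T vs. S, in opposite directions. Of all genes, 10.3% were higher and 11% lower in T vs. S, so this count is not a result about the regulators. Ppargc1a, which encodes the coactivator PGC-1α, measured 157, 189 and 206 CPM in S, 375, 213 and 370 in T and 192, 177 and 118 in A + T. T lay above both other groups, with animal 12 nearest to them, and A + T overlapped S. The log2 fold change was 0.79 in T vs. S (SE 0.23, adjusted P = 0.0325), −0.97 in A + T vs. T (SE 0.23, adjusted P = 0.0367) and −0.18 in A + T vs. S (95% interval −0.69 to 0.32, adjusted P = 0.655). With each animal left out in turn, the adjusted P in T vs. S stayed under 0.05 in 4 of 9 fits (lost without animals 2, 3, 5, 11 or 15, range 0.66 to 1.02, highest adjusted P = 0.118). For A + T vs. T it did so in 2 of 9 (lost without animals 2, 3, 5, 11, 15, 20 or 21, range −1.20 to −0.79, highest adjusted P = 0.143). Without animals 12 and 22 the values were 1.03 (adjusted P = 0.00013) and −1.02 (adjusted P = 0.00204). Ppargc1b, the related coactivator PGC-1β, spread from 18.3 to 39.1 CPM and overlapped in all groups, with 33.2, 30.3 and 25.8 in S, 25.5, 21.7 and 38.6 in T and 30.2, 39.1 and 18.3 in A + T. Its log2 fold change was −0.07 in T vs. S, 0.04 in A + T vs. T and −0.03 in A + T vs. S.

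Ppard encodes PPARδ, a receptor abundant in muscle. It was 35.1, 32.4 and 32.2 CPM in S, 27.4, 22.8 and 25.1 in T and 25.2, 25.3 and 20.5 in A + T. Both groups lay below S without overlap. Ppard differed by −0.40 on the log2 scale in T vs. S (SE 0.10, adjusted P = 0.0211) and −0.49 in A + T vs. S (SE 0.10, adjusted P = 0.0208). The first call was lost without animals 2, 3, 12 or 15 (range −0.48 to −0.34, highest adjusted P = 0.082), the other without animals 2, 3 or 5 (range −0.54 to −0.39, highest adjusted P = 0.0924), and both with library totals alone.

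Ppara encodes PPARα, the receptor that drives fatty acid oxidation in liver and heart. It stood at 151, 132 and 134 CPM in S, 115, 115 and 137 in T and 100, 104 and 76.2 in A + T. A + T lay below both other groups, and T overlapped S. Ppara differed by −0.57 on the log2 scale in A + T vs. S (SE 0.12, adjusted P = 0.0223), −0.38 in A + T vs. T (95% interval −0.66 to −0.11, adjusted P = 0.099) and −0.19 in T vs. S (95% interval −0.46 to 0.09, adjusted P = 0.308). The call in A + T vs. S was lost without animals 2, 3 or 5 of S (range −0.65 to −0.44, highest adjusted P = 0.0961). In A + T vs. T, Ppara was called lower with DESeq2 alone among the alternatives. Pparg, the adipocyte receptor, was 10.5, 11.7 and 7.96 CPM in S, 10.2, 12.4 and 8.51 in T and 7.73, 7.54 and 8.93 in A + T. The groups overlapped in every comparison, and it did not pass the test.

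The oestrogen-related receptors bind promoters of mitochondrial genes without a known natural ligand. Esrra measured 116, 112 and 115 CPM in S, 113, 101 and 110 in T and 102, 113 and 105 in A + T. Esrrg, the isoform prominent in the heart, measured 67.8, 65.9 and 77.2 in S, 78.0, 77.3 and 72.8 in T and 83.2, 79.2 and 53.8 in A + T. Neither passed the test, and all 3 intervals of Esrra lay between −0.26 and 0.15.

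**Figure D3:**
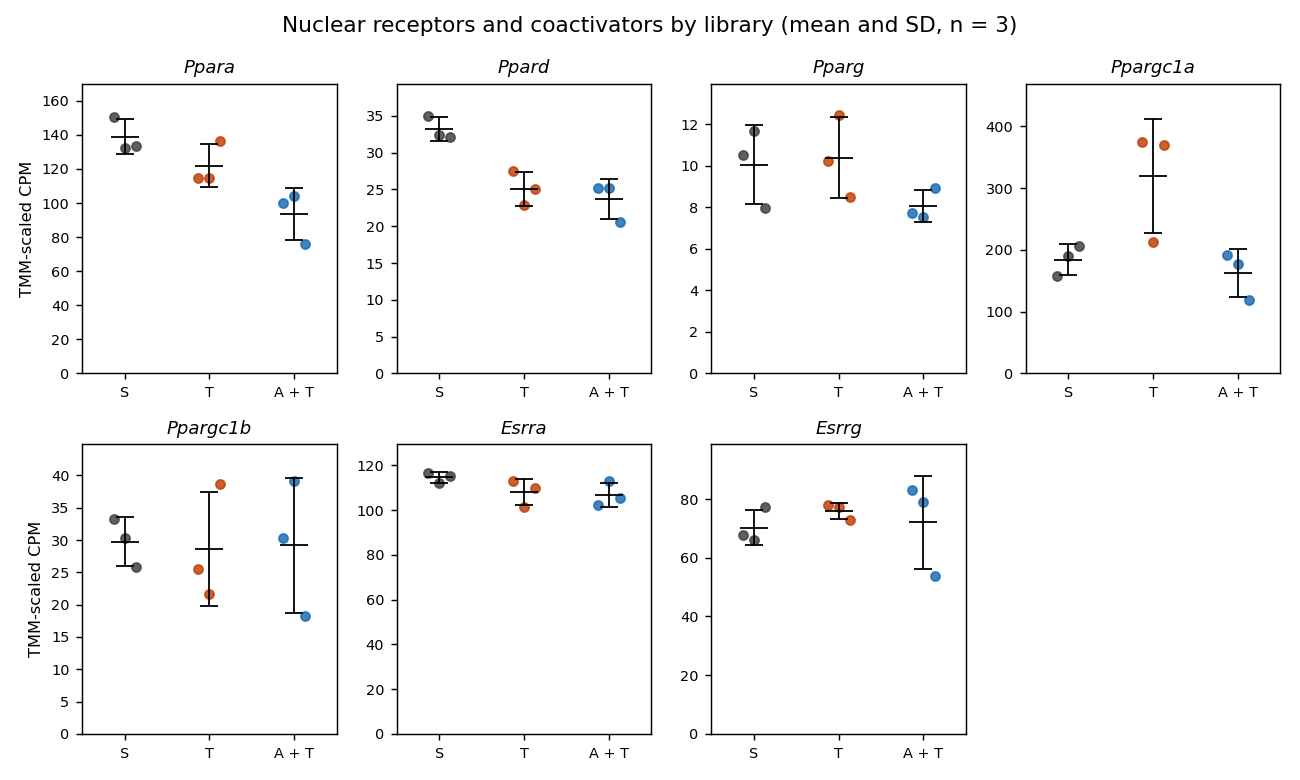
TMM-scaled CPM (y axis, from 0) of the 7 nuclear receptors and coactivators in the 9 libraries, by group. Points are animals, and bars are the mean and SD (n = 3). Ppargc1a is highest in T, at 213 to 375 CPM, Ppard is lower in T and A + T than in S, and Ppara is lowest in A + T.

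Other genes of the pathway were then examined, from lists that hold no member. Of 18 further PPAR targets, 13 were tested, and 6 were higher in T vs. S and 6 in A + T vs. S, with 0 in A + T vs. T. Of all genes, 10.3% were higher in T vs. S, 4.67% in A + T vs. S and 3.09% in A + T vs. T. The lists were chosen with earlier results of these data known, so these counts are not a test of the PPAR targets. Pdk4, the kinase that inhibits pyruvate dehydrogenase and so spares glucose, measured 126, 259 and 597 CPM in S, 3867, 1558 and 2436 in T and 2076, 2465 and 2556 in A + T. Both groups stood above S without overlap, and its log2 fold change was 3.00 in T vs. S (SE 0.50, adjusted P = 0.00263) and 2.85 in A + T vs. S (SE 0.50, adjusted P = 0.0102). Angptl4, the secreted inhibitor of lipoprotein lipase, measured 1.82, 4.67 and 10.8 CPM in S, 58.4, 11.8 and 24.2 in T and 62.8, 57.3 and 55.0 in A + T. T and A + T did not overlap S, although animal 12 of T came close to it, and the log2 fold change was 2.51 (SE 0.61, adjusted P = 0.0154) in T and 3.39 (SE 0.61, adjusted P = 0.0109) in A + T, each vs. S. Txnip, an inhibitor of glucose uptake, rose by 1.67 and 1.70, Plin2, a lipid droplet coat protein, by 1.12 and 0.83, and the mitochondrial carrier Slc25a34 by 0.63 and 0.61, on the log2 scale in T and in A + T, each against S. Cidea, a lipid droplet protein, was higher by 0.73 in T vs. S (adjusted P = 0.00296) with 0.43 in A + T vs. S (adjusted P = 0.0614).

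Of 13 genes of peroxisomal beta-oxidation, 2 were higher and 1 was lower in T vs. S, 2 were lower in A + T vs. T and 1 was lower in A + T vs. S. Of all genes, 10.3% were higher and 11% lower in T vs. S. The shares that were lower were 2.79% in A + T vs. T and 3.64% in A + T vs. S. Nothing is read from these few calls about peroxisomal oxidation as a whole. Scp2, whose products include a peroxisomal thiolase, had a mean of 212 ± 13.5 CPM in S, 307 ± 14.5 for the libraries labelled T and 236 ± 9.04 for A + T (SD, n = 3). T stood above both other groups. Its log2 fold change was 0.53 in T vs. S (SE 0.08, adjusted P = 0.00142) and −0.38 in A + T vs. T (SE 0.08, adjusted P = 0.0243). Of 7 genes of malonyl-CoA and fatty acid synthesis, 1 was lower in T vs. S, against 11% of all genes. It was the elongase Elovl6, which differed by −1.35 (adjusted P = 0.0171), at 1.93 to 3.69 CPM in S and 0.749 to 1.55 in T.

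**Figure D4:**
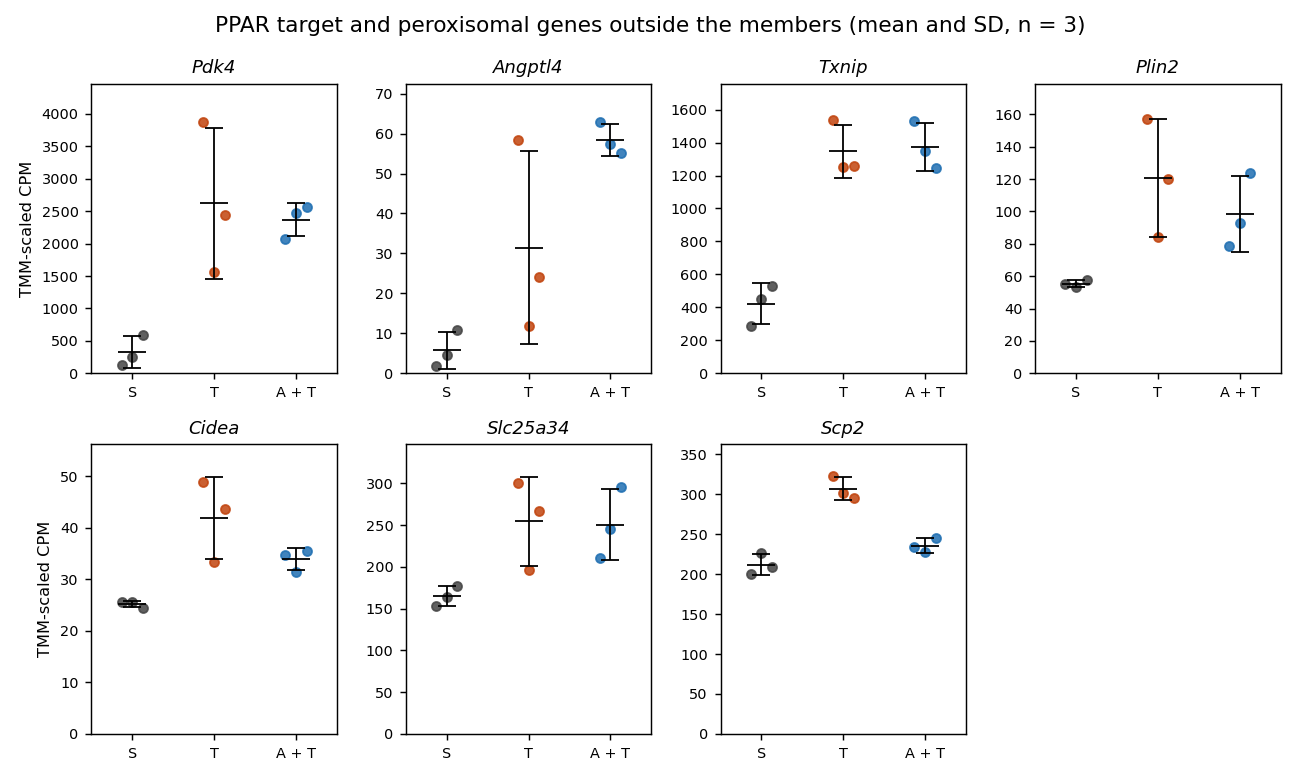
TMM-scaled CPM (y axis, from 0) of 6 further PPAR targets and the peroxisomal gene Scp2 in the 9 libraries, by group. Points are animals, and bars are the mean and SD (n = 3). Pdk4 and Txnip are high in both T and A + T, whereas Scp2 stands at 296 to 324 CPM in T and at 228 to 246 in A + T.

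Of 21 partners and regulators of PPAR and PGC-1, 2 were higher and 4 lower in T vs. S, 2 were lower in A + T vs. T and 2 were lower in A + T vs. S. Of all genes, 10.3% were higher and 11% lower in T vs. S, 2.79% lower in A + T vs. T and 3.64% lower in A + T vs. S, and nothing is read from these few genes about the list. Klf15, a glucocorticoid-induced factor of lipid and amino acid metabolism, measured 42.5, 40.0 and 48.9 CPM in S, 76.4, 116 and 73.0 in T and 44.7, 51.1 and 61.4 in A + T. T stood above both other groups, and its log2 fold change was 1.02 in T vs. S (SE 0.18, adjusted P = 0.0034) and −0.76 in A + T vs. T (SE 0.18, adjusted P = 0.0367). Sirt1, the deacetylase that activates PGC-1α, showed 0.51 (adjusted P = 0.00263) and −0.35 (adjusted P = 0.0407). The genes that were lower in T vs. S were Perm1, a muscle regulator downstream of PGC-1α (−0.56, adjusted P = 0.0293), the coactivator Ncoa1 (−0.45, adjusted P = 0.00808), the mitochondrial deacetylase Sirt3 (−0.32, adjusted P = 0.0158) and Tfam, the factor that packages and transcribes mitochondrial DNA (−0.23, adjusted P = 0.0356). Ncoa1 (−0.40, adjusted P = 0.0303) and the retinoid X receptor Rxrg (−0.32, adjusted P = 0.0384) were lower in A + T vs. S, and Rxrg is named after its values were seen.

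Markers of other cell types also moved with the groups. The 5 atrial markers summed to 2780 to 3300 CPM in S, 743 to 4930 in T and 849 to 2050 in A + T, and all 5 had negative log2 fold changes in both groups against S. Of these, Bmp10, an atrial ligand of the BMP family, passed the test, in T vs. S (−6.07, adjusted P = 0.0135). Of 6 fibroblast markers, 6 were lower in T vs. S and 4 were higher in A + T vs. T, and their summed level was 1420 to 1640 CPM in S, 739 to 1020 in T and 979 to 1620 in A + T. Of 6 endothelial markers, 4 were lower in T vs. S, 1 was higher in A + T vs. T and 1 was lower in A + T vs. S. Their sums were 796 to 945 CPM in S, 439 to 532 in T and 605 to 712 in A + T. Macrophage markers summed to 244 to 311 CPM in S, 214 to 340 in T and 427 to 685 in A + T. Of 6, 5 were higher in A + T vs. S, while Mrc1 differed by −0.36 on the log2 scale (adjusted P = 0.194). Of all genes, 11% were lower in T vs. S and 3.09% were higher in A + T vs. T. In A + T vs. S, 4.67% were higher and 3.64% lower. Of 8 adipocyte markers, 5 were tested and 1, Lipe, was higher in T vs. S and in A + T vs. S (1.41 and 1.34). The sums were 354 to 427 CPM in S, 384 to 492 in T and 464 to 622 in A + T. Most of each sum was Fabp4, with mean TMM-scaled CPM of 330, 313 and 424 in S, T and A + T. Adipoq, Plin1 and Cfd averaged at most 18.0 CPM in any group. Their log2 fold changes in A + T vs. T were −2.38, −1.69 and −2.48, and none passed the test. Between A + T and T, the sum thus went with Fabp4, which differed by 0.44 on the log2 scale. From S to T it did not. The median sum was higher in T (420 against 355 CPM), while Fabp4 differed by −0.08 and Lipe by 1.41. The sum therefore does not measure adipocytes. No marker present in the table was at 0 throughout a group. The part of these cell types in the members' differences was not tested.

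Of the members that did not pass the test, 27 of 33 in T vs. S, 30 of 40 in A + T vs. T and 29 of 34 in A + T vs. S lay within 0.25 of 0 on the log2 scale. At an unadjusted P under 0.05 a further 5, 3 and 3 members, respectively, would have passed. Ucp3, Cpt1a, Ehhadh and Slc27a1 kept an adjusted P under 0.05 in 9 of 9 fits without 1 animal and in 10 of 10 other settings, for T as for A + T against S.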

How the data were processed

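Heart RNA of 9 mice was sequenced as 75-base paired ends. The authors aligned the reads to mm10 with STAR, after FastQC, and deposited the raw count of uniquely mapped, strand-matched read pairs per refGene gene, obtained with featureCounts at a mapping quality of at least 10. Versions are not given in the sources used here. The authors also deposited log2 values per library size and gene length, which were used for levels between genes, the isoform ratio and 1 alternative. All values come from these 2 tables, and a gene list of the study served to check the labels.

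A gene was dropped when its CPM fell under 0.5 in over 4 libraries, as in the study, and 13364 of 13890 remained. One edgeR 4.0.16 model covered the 3 groups (TMM factors, quasi-likelihood test) in R 4.3.3, and P-values were adjusted by Benjamini-Hochberg over all genes tested, with a call at 0.05. The steps were tested on simulated data. Intervals are 95%. Alternatives were DESeq2 1.42.0, limma 3.58.1 (voom, and on the deposited log2 values), upper-quartile factors, library totals, the counts without the ribosomal RNA gene Rn45s (4.574% to 19.61% of a library), no low-count filter, a minimum of 10 counts per library (12254 genes), only the groups compared, the thresholds of the study (unadjusted P of 0.05 and 1.5-fold), each animal left out, and, chosen after seeing the data, animals 12 and 22 left out. Pairs of libraries within a group differed beyond counting noise (chi-square per gene of at least 7.53), and each was counted as 1 animal, as the labels number them.

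The members and gene lists were chosen with earlier results of these data known. Values in all libraries are given for members called in T vs. S or A + T vs. T, for the PPAR, PGC-1 and oestrogen-related receptor genes and for Cpt1a and Cpt1b, and called genes of the other lists, at most 6 a list, are named, some with group or library values. Some genes counted in these lists are not reported here by name. At these depths 3 counts equal 0.152 to 0.242 CPM.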

Additional observations from a re-analysis of the deposited data

How the results depend on the processing

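The number of members called in T vs. S was 8 and ranged from 4 to 11 over the 9 fits that each lacked 1 animal. It was 13 without animals 12 and 22, which was chosen after seeing the data. In A + T vs. T it was 1, with 0 to 1 when single animals were left out, 2 with DESeq2 and 0 when only the groups compared were fitted. In A + T vs. S it was 7, with 4 to 9 when single animals were left out. Fits without an animal also had fewer animals, and the cause of these shifts was not tested. Under the other settings the 3 counts stayed within 1.5 times these values. The median log2 fold changes moved by less than 0.15, the standard error of a group difference in the median member level. The isoform ratio moved by less than the spread between replicates. Over the single members, 2189 values kept their side of the threshold. Among these, called ones kept their sign, without a check of their size, and uncalled ones moved by less than their standard error. A further 80 uncalled ones moved by more than their standard error, 26 passed and 42 lost the threshold, and none of the called values reversed. A permutation over 3 animals against 3 has a smallest exact P of 0.1. The counts of Cpt1b, Etfb, Acot1 and Acot2 may be limited by shared sequence, which was not tested.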
